A study of Mus musculus with 4 samples.

Results

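The genes described here are the colony-stimulating factor (CSF) receptors and ligands that keep myeloid cells alive, and they were followed in single immune cells of the mouse spinal cord before and after a contusion. They were chosen by symbol from the gene list of the 4 count matrices, and all 7 were found among its 31053 genes: the ligands Csf1, Il34 and Csf2 and the receptor genes Csf1r, Csf2ra, Csf2rb and Csf3r. Adult C57BL/6 mice had a laminectomy with a contusion of the thoracic cord at T10, or the same surgery without contusion (sham), and CD45-positive cells, the immune cells, were sorted from the cord segment around the lesion. The 4 libraries were a sham library dissociated in the standard way, a sham library dissociated with actinomycin D (ActD sham), and libraries at 3 and 14 days post injury (dpi), both dissociated with actinomycin D. Actinomycin D blocks transcription, so that genes cannot be switched on while the tissue is being digested. The labels describe both sham libraries as healthy spinal cords, while the study's text calls them sham. The labels name no transgene. All mice of the study were injected with flunixin meglumine, ceftiofur sodium and saline daily in the first days after surgery. Per the study's methods, mice of both sexes were divided at random among control, 3 dpi and 14 dpi, and how many of them went into each library was not given in the sources used here. Each condition was a single library, so no test between conditions was possible and no p-value is given. Every interval below is a 95% interval that covers counting error only, and the spread between mice is unknown.

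CSF1 (M-CSF) and IL34 are the ligands of CSF1R, a receptor tyrosine kinase on which microglia and most macrophages depend for survival and proliferation. CSF2 (GM-CSF) binds a specific alpha chain, encoded by Csf2ra, which pairs with the common beta chain encoded by Csf2rb, a chain shared with the receptors for IL-3 and IL-5. CSF3R is the receptor for G-CSF and drives the production and survival of neutrophils. In the healthy central nervous system CSF1 comes mainly from glia, microglia among them, and IL34 mainly from neurons. Neurons lie outside the sorted CD45-positive cells.

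The members lie on separate chromosomes. In GRCm38, Csf1 spans chr3:107741048-107760469 on the minus strand, Csf3r spans chr4:126024550-126044440 on the plus strand and Csf2 spans chr11:54247271-54249667 on the minus strand. Il34 lies at chr8:110741829-110805924 on the minus strand and Csf2ra at chr19:61223957-61228429 on the minus strand. Csf2rb, at chr15:78325752-78353847 on the plus strand, has a near-identical neighbour, Csf2rb2, at chr15:78282507-78305721 on the minus strand, and reads may have been shared between them, so the values of Csf2rb are uncertain to that extent. RefSeq promoters (GRCm38.p6) were matched for 4 of the 7 members, Csf1, Csf2, Csf2ra and Csf3r, and were searched on both strands for 3 motifs of factors used in myeloid cells. The stretches that hold a match are shown 5′ to 3′ on the strand of the gene, with the match in capitals. They are placed by the RefSeq start of the gene, which can differ from the start of the spans above. The Csf3r stretch lies within the span given for its gene, and the Csf2ra stretch overlaps its span.

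Csf1 (chr3:107760470-107760719, minus strand): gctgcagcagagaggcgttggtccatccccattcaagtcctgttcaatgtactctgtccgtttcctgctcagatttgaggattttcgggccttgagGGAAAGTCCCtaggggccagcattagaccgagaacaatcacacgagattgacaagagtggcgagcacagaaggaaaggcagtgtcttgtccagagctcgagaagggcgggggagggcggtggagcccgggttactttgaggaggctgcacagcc

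Csf3r (chr4:126024561-126024590, plus strand): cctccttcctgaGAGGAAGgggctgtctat

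Csf2ra (chr19:61228419-61228448, minus strand): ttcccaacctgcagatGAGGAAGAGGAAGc

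The capitals in the Csf1 promoter are an NF-kB motif read on the opposite strand, searched with any base allowed at 1 position and starting 154 bases before the start of the gene. It was found in 117 of 32851 promoters of the same length (0.356%). The capitals in the Csf3r and Csf2ra stretches are the PU.1 motif GAGGAAG, found in 10.6% of promoters, with 1 match in Csf3r and 2 matches in Csf2ra that overlap by their last and first base. The AP-1 motif TGANTCA, found in 6.75% of promoters, had no match in the 4 promoters. These matches describe letters in a window and do not show that a factor is bound.

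After filtering, 5035 standard sham, 2135 ActD sham, 8214 3 dpi and 9078 14 dpi cells were kept, with median depths between 7426 and 9672 unique molecular identifiers (UMIs) a cell. Clusters were named from marker genes and gave 15 classes. Clusters led by cell cycle genes, and 1 cluster of ActD sham with leading genes of another class, were instead split cell by cell, each cell taking the class whose marker profile it was most like. Of the 958 microglia at 3 dpi, 404 were named in this way from cluster 9. In standard sham, ActD sham, 3 dpi and 14 dpi, 542, 131, 262 and 194 cells were left unnamed. Among them was cluster 5, shallow and with no marker leading, in standard sham (375 cells), ActD sham (83) and 3 dpi (224). At 14 dpi cluster 5 was named microglia (481 cells, 11.3% of the class). The part of this in the comparisons of microglia with 14 dpi was not tested. The libraries shared between 3 and 36 cell barcodes a pair. Levels are given in CPM, for which the UMIs of each class in a library are summed and scaled to the same total. The classes were named from marker lists, so the marker levels below describe the classes and are no independent check of them. All 11 microglia markers had UMIs in the microglia of every library, and also in the B cells of every library. Their summed level in microglia was 16861, 28932, 6655 and 13336 CPM in standard sham, ActD sham, 3 dpi and 14 dpi. The summed level of the 10 injury-associated macrophage markers in the same microglia was 833, 514, 33058 and 8128 CPM. Of these 10, 5 (Spp1, Fabp5, Lgals3, Cd63 and Gpnmb) are also genes of activated microglia and were left out of the naming. They are part of the sums of this list here and below. Thus the cells called microglia at 3 dpi had the lowest level of the markers that name them and the highest level of this mixed list. The part of either in the results on microglia was not tested.

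**Figure D1:**
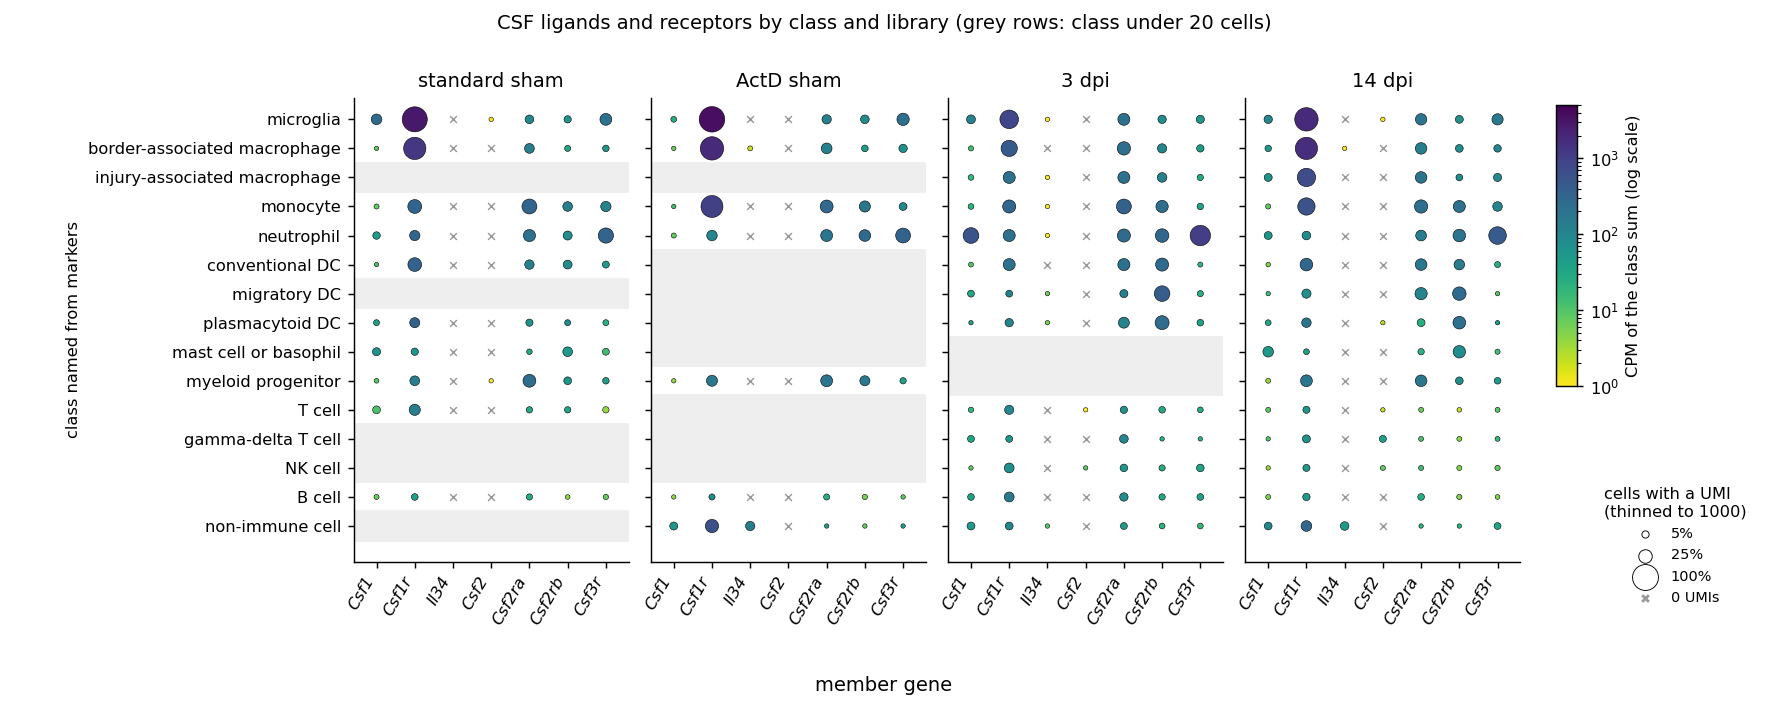
Each panel is a library, with classes down the side and members along the bottom. Colour is the level in CPM on a log scale, dot size the share of cells with a UMI after thinning to 1000 UMIs, a cross 0 UMIs and a grey row a class under 20 cells. Csf1r was highest in microglia in all 4 libraries, Csf3r in neutrophils and, at 3 dpi, Csf1 in neutrophils (566 CPM).

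Csf1r, a gene of chromosome 18, marked the resident cells and was low after injury. In microglia its level was 2849 CPM in standard sham, 3696 CPM in ActD sham, 808 CPM at 3 dpi and 1789 CPM at 14 dpi. Microglia had more Csf1r than any other class in each library, and the 2 sham levels lay above both levels after injury. At 3 dpi the level was 4.57-fold lower than in ActD sham (4.49 to 4.65), and at 14 dpi 2.07-fold lower (2.04 to 2.09). The median over all tested genes was also lower in these pairs, by 0.52 and 0.55 on the log2 scale, and relative to that median Csf1r fell by 1.67 and by 0.50. With TMM scaling, which sets most genes to no change, Csf1r at 14 dpi was 1.39-fold lower and no longer past 2-fold. Per cell, the median was 37.1 Csf1r UMIs per 10000 in ActD sham, 7.34 at 3 dpi and 18.5 at 14 dpi. The upper quartile at 3 dpi, 11.3 per 10000, lay below the lower quartile in ActD sham, 30.6 per 10000, and below that in standard sham, 23.1 per 10000. After each cell was thinned to 1000 UMIs, Csf1r was detected in 97.0% of ActD sham, 50.1% of 3 dpi and 81.1% of 14 dpi microglia.

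**Figure D2:**
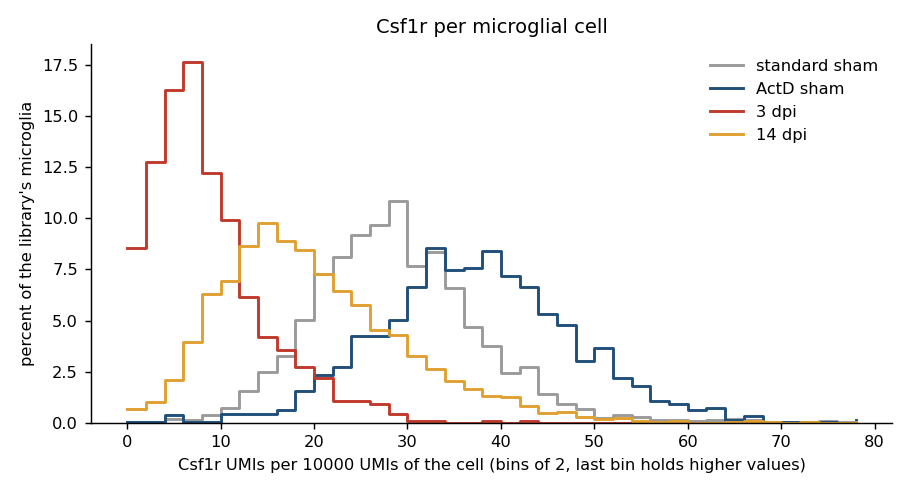
Csf1r UMIs per 10000 UMIs in single microglia of each library, as the share of cells in each bin. The median was 28.3 in standard sham, 37.1 in ActD sham, 7.34 at 3 dpi and 18.5 at 14 dpi.

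The level in lymphocytes was taken as a background, since T and B cells do not use CSF1R. Whether these counts came from free RNA was not tested. The level was 90.2 CPM in T cells and 152 CPM in B cells at 3 dpi, and 59.1 and 49.7 CPM at 14 dpi. After thinning, 9.92% of T cells and 11.9% of B cells had a Csf1r UMI at 3 dpi, at median depths of 3657 and 2513 UMIs against 17383 in microglia. Microglia lay far above the lymphocytes in both injury libraries.

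The low Csf1r of injured microglia was seen within clusters as well as over them. Cluster 0, with P2ry12 and Gpr34 among its leading genes in ActD sham and at 3 dpi, held 84.2% of ActD sham microglia but 17.8% at 3 dpi and 23.9% at 14 dpi. Cluster 1, led at 14 dpi by Lpl and Spp1, held 55.2% of microglia there, and at 3 dpi cluster 9, led by the cell cycle genes Mki67 and Top2a, held 42.2%. Within cluster 0, Csf1r was 3901 CPM in ActD sham, 1526 CPM at 3 dpi and 2623 CPM at 14 dpi. Between 3 dpi and ActD sham the ratio was 0.39 (0.38 to 0.41) in cluster 0, 0.20 (0.19 to 0.21) in cluster 1 and 0.32 (0.30 to 0.34) in cluster 8. The order of ActD sham, 14 dpi and 3 dpi held in each of these 3 clusters. The median log2 ratio of all genes at 3 dpi was −0.58, −0.44 and −0.49 in clusters 0, 1 and 8. In cluster 0 at 14 dpi it was −0.39, and there Csf1r was lower by only a little more than the median gene. Within ActD sham itself, cluster 1 had a lower Csf1r level than cluster 0, 2660 against 3901 CPM.

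Csf1, the ligand, went the other way in the same cells. Its level in microglia was 260 CPM in standard sham, 26.7 CPM in ActD sham, 120 CPM at 3 dpi and, at 14 dpi, 98.0 CPM. The highest and the lowest of the 4 levels were both in sham mice, from libraries that differed in the dissociation, and the protocol cannot be told apart from the library. Standard sham was 9.76-fold above ActD sham (8.88 to 10.75), a larger difference than either injury library showed. Against ActD sham, which shared the actinomycin D with the injury libraries, Csf1 was 4.50-fold higher at 3 dpi (4.07 to 4.98) and 3.68-fold higher at 14 dpi (3.34 to 4.05). In CPM the receptors differed less between the sham libraries: Csf1r, Csf2ra, Csf2rb and Csf3r were at 0.77, 0.80, 0.72 and 0.94 of their ActD sham level in standard sham. The median log2 ratio of all genes in this pair was −0.56, so all 4 lay above the median gene. Csf1 was the member that differed most between the sham libraries in microglia.

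Csf1 also depended on the cluster. In ActD sham it was 97.7 CPM in cluster 1 against 18.2 CPM in cluster 0. Within cluster 0 it was 5.39-fold higher at 3 dpi (4.47 to 6.48) and 2.08-fold higher at 14 dpi (1.76 to 2.45). Within cluster 1, 3 dpi was 1.39-fold higher (1.15 to 1.69) and at 14 dpi the ratio was 1.14 with an interval from 0.95 to 1.37, which spans 1. The median log2 ratio of all genes at 3 and 14 dpi was −0.58 and −0.39 in cluster 0, and −0.44 and −0.42 in cluster 1. Csf1 thus lay above the median gene in each of these pairs. The share of cluster 1 was larger in both injury libraries, 29.2% at 3 dpi and 55.2% at 14 dpi against 6.08% in ActD sham. The members and the pathway genes were left out of the genes used for clustering. Csf1 was nonetheless among the leading genes of cluster 1 in standard sham, and differences between clusters are descriptions.

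**Figure D3:**
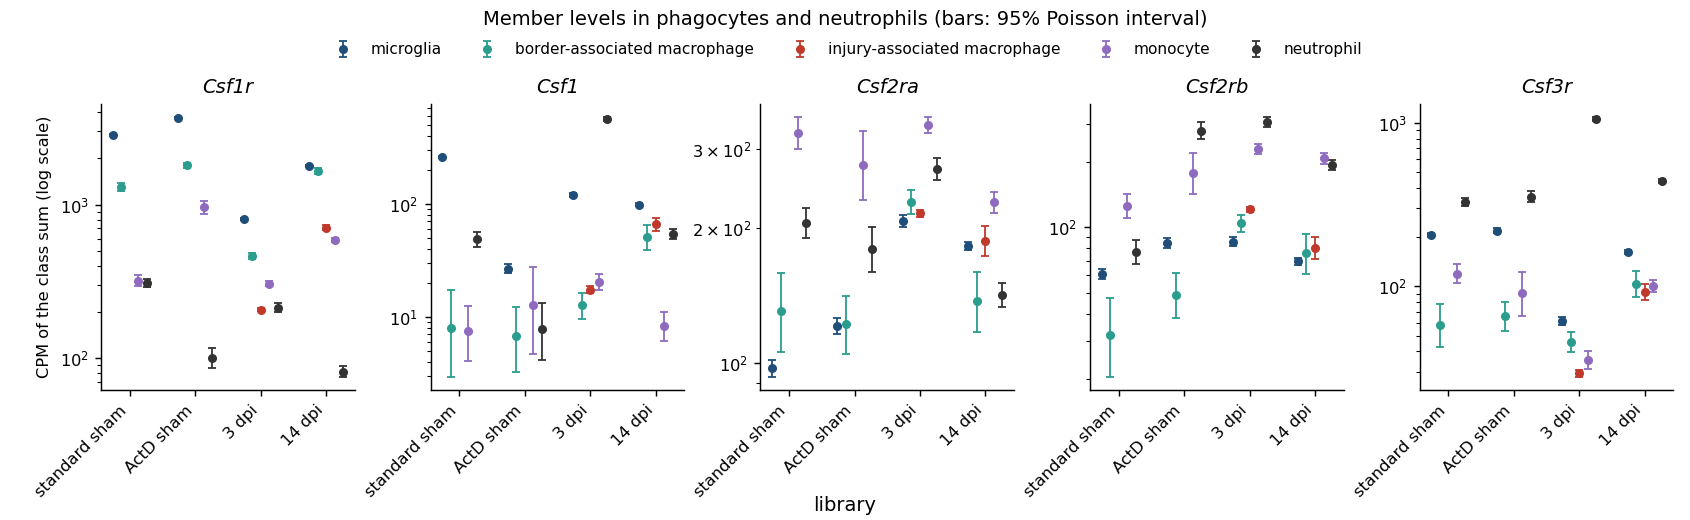
CPM of Csf1r, Csf1, Csf2ra, Csf2rb and Csf3r (log axis) in microglia, border-associated and injury-associated macrophages, monocytes and neutrophils of each library, with 95% Poisson intervals as bars. In microglia Csf1r was lowest at 3 dpi (808 CPM), and Csf1 was lowest in ActD sham (26.7 CPM).

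The other receptors of microglia moved in different directions. Csf2ra was 97.1, 121, 207 and 182 CPM in standard sham, ActD sham, 3 dpi and 14 dpi, which was 1.71-fold (1.63 to 1.81) and 1.505-fold (1.43 to 1.58) above ActD sham after injury. Csf2rb, its signalling partner, was 60.9, 85.0, 85.8 and 69.7 CPM, and its ratio of 3 dpi to ActD sham was 1.01 (0.94 to 1.08). Csf3r, better known from neutrophils, was 207, 219, 61.6 and 162 CPM, 3.56-fold lower at 3 dpi (3.34 to 3.805) and 1.35-fold lower at 14 dpi. The median over all tested genes was lower by 0.52 at 3 dpi and 0.55 at 14 dpi on the log2 scale. Csf3r at 14 dpi was thus lower by less than the median gene, and Csf2rb at 3 dpi lay above the median gene. Csf3r in microglia was therefore low at 3 dpi together with Csf1r, whereas the GM-CSF receptor genes were not. Of the 7 members, 5 had at least 20 UMIs in the pair. Of these, 1 was at least 2-fold higher and 2 were at least 2-fold lower at 3 dpi than in ActD sham, where 14.2% of all genes tested were higher and 32.7% were lower. At 14 dpi the counts were 1 higher and 1 lower, beside 6.09% and 19.7% of all genes, and in standard sham 1 higher and none lower, beside 6.76% and 23.8%. The share of members that were lower at 3 dpi was close to the share of all genes.

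Cycling microglia, taken as those with a UMI of Mki67 or Top2a, were 143 of 2588 in standard sham (5.53%), 56 of 1611 in ActD sham (3.48%), 620 of 958 at 3 dpi (64.7%) and 333 of 4268 at 14 dpi (7.80%). After thinning to 3000 UMIs the shares were 2.51%, 2.51%, 44.1% (40.8 to 47.4) and 2.97%, and 66 shallower microglia were left out at 3 dpi and 15 to 161 in the other libraries. The 3 dpi share stood apart from the other libraries before and after thinning. In neutrophils, which do not divide once mature, the thinned share was 17.5% at 3 dpi and between 2.15% and 4.27% in the other libraries. The 3 dpi value rests on the 303 of 1787 neutrophils that reached 3000 UMIs, and the source of these transcripts in neutrophils was not tested. Cycling cells were deeper, with a median of 23219 against 10367.5 UMIs at 3 dpi.

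Taken over all clusters, Csf1r was only slightly different in the cycling cells, and Csf3r differed more at 3 dpi. At 3 dpi Csf1r was 779 CPM in cycling and 920 CPM in other microglia, a ratio of 0.85 (0.82 to 0.88), and Csf1 was 126 against 98.1 CPM, a ratio of 1.28 (1.15 to 1.43). Csf3r was 55.0 against 86.4 CPM, a ratio of 0.64 (0.56 to 0.72), while Csf2ra and Csf2rb had ratios of 0.91 and 0.84. None of the 5 members tested was past 2-fold in either direction, beside 5.93% of all genes higher and 1.93% lower. The Csf1r ratio was 0.96 in standard sham, 0.81 in ActD sham and 0.86 at 14 dpi, so it lay between 0.81 and 0.96 in the 4 libraries. Within clusters at 3 dpi the difference in Csf1r was not seen. Its ratio was 0.95 (0.88 to 1.01) in cluster 0, 1.03 (0.95 to 1.12) in cluster 1, 1.06 (0.97 to 1.17) in cluster 8 and 1.01 (0.84 to 1.22) in cluster 9. Csf1, in contrast, was higher in the cycling cells of clusters 0, 1 and 8, with ratios of 1.5, 1.62 and 2.37, but lower in cluster 9, with a ratio of 0.54 against 19 other cells. The Csf1 difference also turned when cycling cells were called after thinning, with a ratio of 0.87. For Csf3r the ratio was 0.995 (0.78 to 1.27) in cluster 0, 0.66 (0.51 to 0.86) in cluster 1 and 0.88 (0.64 to 1.22) in cluster 8. In cluster 9 it was 2.61 (0.89 to 12.7), against 3 Csf3r UMIs in the other cells. The lower Csf3r of cycling cells was thus clear in cluster 1 alone.

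**Figure D4:**
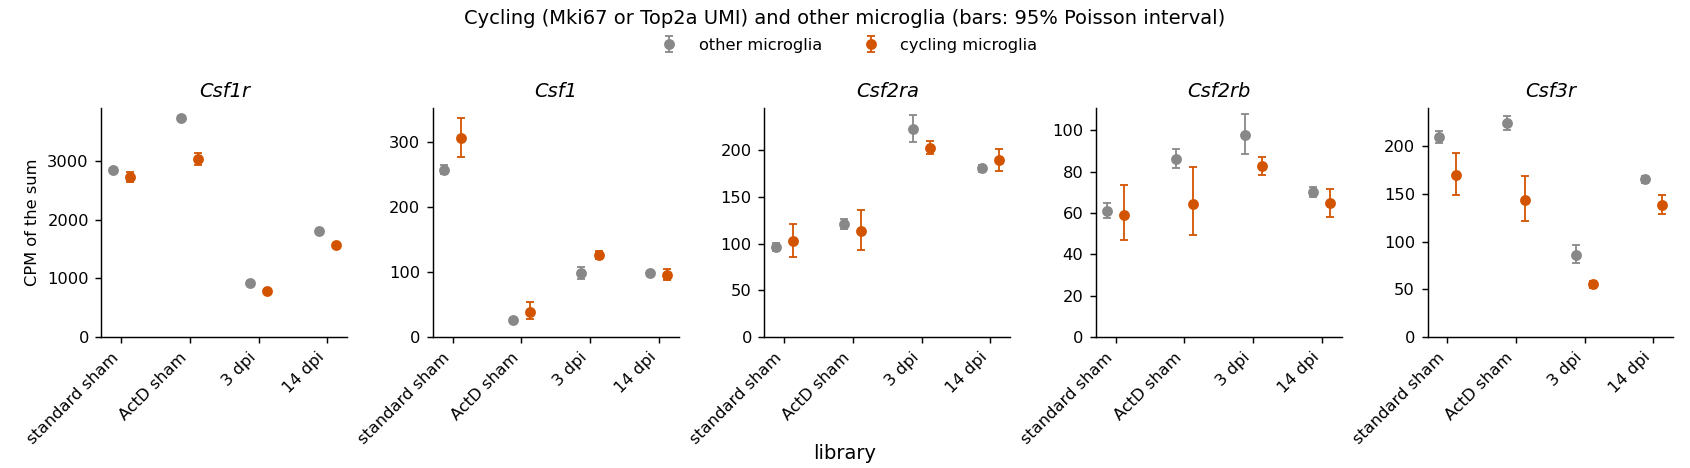
CPM of the 5 members with enough UMIs (linear axis from 0) in cycling and other microglia of each library, with 95% Poisson intervals as bars. At 3 dpi Csf1r was 779 CPM in cycling and 920 CPM in other microglia, both far below the sham levels.

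Injury-associated macrophages, a class named only in the injury libraries (2740 cells at 3 dpi and 222 at 14 dpi), had less Csf1r and Csf1 than microglia. At 3 dpi Csf1r was 207 CPM against 808 CPM in microglia, 3.91-fold lower (3.81 to 4.004), and Csf1 was 17.4 against 120 CPM, 6.90-fold lower (6.38 to 7.47). Csf3r was 2.09-fold lower. T cells of this library held 33 Csf1 and 52 Csf3r UMIs among 1917406 UMIs. In CPM the macrophages, with 867 and 1466 among 49877042, were near these levels. The T cells were shallower, with a median depth of 3657 against 16927 UMIs. A Csf1 UMI was found in 27 of 484 T cells and in 537 of 2740 macrophages. A Csf3r UMI was found in 44 and 1028 of them. The part of background in these macrophage counts was not tested. The GM-CSF receptor genes were at or above the level of microglia, with 215 CPM of Csf2ra, a ratio of 1.04 (1.003 to 1.08), and 121 CPM of Csf2rb, a ratio of 1.41 (1.34 to 1.49). Of the 5 tested members, 3 were past 2-fold lower and none was past 2-fold higher, beside 15.8% and 6.3% of all genes. The Csf1r level of these macrophages at 3 dpi was above that of B cells in the library (152 CPM, 114 to 200, from 52 UMIs). It was further above that of T cells. A Csf1r UMI was found in 2522 of the macrophages and in 42 of 126 B cells, at median depths of 16927 and 2513 UMIs.

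By 14 dpi the macrophages had more Csf1r and less of the GM-CSF receptor. The 14 dpi class depends on how cells are named. It held 0 cells when each library was clustered alone and 573 when each cell was named on its own, against 222 here, so the comparison of the times could not be made under the first of these. Csf1r was 709 CPM, 3.42-fold above 3 dpi (3.28 to 3.57), Csf1 was 65.8 CPM, 3.78-fold above (3.26 to 4.37), and Csf3r was 92.3 CPM, 3.14-fold above (2.78 to 3.54). In CPM, the 3 dpi levels of Csf1 and Csf3r in these macrophages were near those of the shallower T cells of that library, which limits these last ratios. Csf2rb was 80.3 CPM, a ratio of 0.66 to 3 dpi (0.59 to 0.75), and Csf2ra was 187 CPM, a ratio of 0.87 (0.80 to 0.94). Their 14 dpi profile lay nearer to that of microglia. Beside it, the summed microglia markers in these macrophages were 973 CPM at 3 dpi and 5799 CPM at 14 dpi, and the macrophage markers 65598 and 19334 CPM. The part of these marker levels in the difference was not tested.

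Border-associated macrophages, the resident macrophages of the meninges and vessels, had the second highest Csf1r level in ActD sham. It was 1303, 1802, 463 and 1665 CPM in standard sham, ActD sham, 3 dpi and 14 dpi. Their Csf1r was 3.89-fold lower at 3 dpi (3.67 to 4.12) and at 14 dpi was 0.92 of the ActD sham level (0.87 to 0.98), so that the 3 dpi level alone stood apart. Marker levels moved with it. The injury-associated macrophage markers in this class summed to 1458 CPM in ActD sham, 26430 CPM at 3 dpi and 3990 CPM at 14 dpi, and at 14 dpi the microglia markers, at 6317 CPM, were above the markers of the class itself, at 5075 CPM. Their part in the levels of Csf1r, Csf2rb and Csf1 was not tested. Csf2rb was 48.9 CPM in ActD sham and 105 CPM at 3 dpi, 2.14-fold higher (1.67 to 2.78). Csf1 was low in the sham libraries, with 6 UMIs in standard sham and 10 in ActD sham, and reached 51.0 CPM at 14 dpi from 61 UMIs, 7.61-fold above ActD sham with a wide interval (3.87 to 16.7).

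Monocytes had 320, 962, 306 and 590 CPM of Csf1r in the 4 libraries, the ActD sham value resting on 31 cells. Leading genes of the monocyte cluster included Ace, Nr4a1 and Ear2 in ActD sham, and Vcan, Ccr2 and Ly6c2 at 3 and 14 dpi. The monocytes of ActD sham and of the injury libraries were therefore not alike. At 14 dpi Csf1r was 1.93-fold above 3 dpi (1.82 to 2.04). Beside it, the injury-associated macrophage markers in monocytes summed to 27907 CPM at 3 dpi and 3780 CPM at 14 dpi, and the monocyte markers to 5329 and 13245 CPM, and the part of these in the difference was not tested. Microglia, border-associated macrophages, injury-associated macrophages and monocytes each had less Csf1r at 3 dpi than at 14 dpi. Monocytes carried the most Csf2ra of these classes, 339 CPM at 3 dpi and 228 CPM at 14 dpi. Compared with injury-associated macrophages at 3 dpi, monocytes had 1.90-fold more Csf2rb (1.79 to 2.01), 1.58-fold more Csf2ra (1.51 to 1.65) and 1.48-fold more Csf1r (1.41 to 1.55).

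At 3 dpi neutrophils held about as many Csf1 transcripts as microglia. Their Csf1 level was 48.5 CPM in standard sham, 7.73 CPM in ActD sham, 566 CPM at 3 dpi and, at 14 dpi, 54.0 CPM. The 3 dpi level was the highest Csf1 level of any class in any library and 4.71-fold that of microglia in the same library (4.46 to 4.99). Neutrophils held 2517 of the Csf1 UMIs of kept cells at 3 dpi, 40.8%, and microglia held 38.2%, while in both sham libraries microglia held more than 80%, 85.5% in standard sham and 82.9% in ActD sham. After thinning, 34.96% of neutrophils had a Csf1 UMI at 3 dpi against 6.62% at 14 dpi, and the share in T cells was 1.45% and 0.80%. Neutrophil Csf1 was 10.5-fold above 14 dpi (9.44 to 11.7). Against ActD sham, where 101 neutrophils held 13 Csf1 UMIs, it was 73.2-fold higher (42.7 to 138). The median of all genes was higher by 1.08 on the log2 scale in this pair, and the neutrophil clusters differed, as given below.

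Csf3r, the receptor that defines the response to G-CSF, was highest in neutrophils in all libraries, with 328, 354, 1057 and 441 CPM in standard sham, ActD sham, 3 dpi and 14 dpi. At 3 dpi it was 2.39-fold above 14 dpi (2.29 to 2.50), Csf1r was 2.62-fold above (2.36 to 2.90), Csf2ra 1.91-fold above (1.76 to 2.08) and Csf2rb 1.58-fold above (1.46 to 1.70). Of the 5 members tested, 3 were past 2-fold higher, where 55.8% of all genes were, and none was past 2-fold lower, beside 5.76%. Csf1r, 1 of the 3, had a UMI in 690 of 1787 neutrophils and in 42 of 126 B cells at 3 dpi. The median depths were 2304 and 2513 UMIs, so its level there was near the lymphocyte background. The median of all genes was higher by 1.16 on the log2 scale in this pair, and relative to it Csf1 was higher by 2.23, Csf3r by 0.10 and Csf2rb was at −0.50. Csf3r therefore moved about as the median gene did, Csf1 well beyond it. Other measures moved with this pair. The 3 dpi neutrophils were shallower, with a median of 2304 against 5051 UMIs, and their 9 neutrophil markers summed to 53481 CPM against 369791 CPM at 14 dpi. The injury-associated macrophage markers summed to 11896 CPM in 3 dpi and 1982 CPM in 14 dpi neutrophils. The part of these in the result was not tested.

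The neutrophils of the libraries also fell into different clusters. Cluster 3 held 80.5% of neutrophils at 3 dpi and 18.8% at 14 dpi. Its leading genes included Hdc, Mmp9 and Csf3r itself at 3 dpi and Cxcl2, Il1b and Acod1 at 14 dpi. Csf3r was left out of the genes used for clustering, and its high level in cluster 3 is a description. Cluster 7, with Retnlg and Stfa2l1 among its leading genes at both times, held 18.0% and 43.9%, and cluster 12, led by granule genes of immature neutrophils such as Ltf and Ngp, held 1.23% and 37.2%. The ActD sham neutrophils lay in cluster 7 (47.5%) and cluster 12 (52.5%). Their comparison with 3 dpi was therefore between unlike clusters. Myeloid progenitors, led by Mpo and Elane, were named in standard sham (224 cells), ActD sham (32) and 14 dpi (294). At 3 dpi a cluster of 68 cells was also led by Mpo, Prtn3 and Elane, but cell cycle genes were among its leading genes and its cells were named one by one, most often as injury-associated macrophages (27) and conventional dendritic cells (16) and in 5 cases as neutrophils. The members differed strongly among these clusters within the 14 dpi library. Clusters 3 and 7 together had 924 CPM of Csf3r against 143 CPM in cluster 12, 6.45-fold more (5.93 to 7.03), and 338 against 105 CPM of Csf2rb, 3.22-fold more. Csf1 was 513 CPM in cluster 3 and 42.9 CPM in cluster 7 at 14 dpi, 11.9-fold apart (9.50 to 15.1). Cluster 3 was high in Csf1 wherever it held enough cells, with 483 CPM in the 23 such cells of standard sham.

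Held within a cluster, the difference between the time points changed. In cluster 3, Csf1 was 634 CPM at 3 dpi against 513 CPM at 14 dpi, a ratio of 1.24 (1.10 to 1.40), Csf3r was 1063 and 1468 CPM, a ratio of 0.72 (0.67 to 0.78), and Csf2rb had a ratio of 0.62 (0.54 to 0.71). Csf3r and Csf2rb were thus lower, not higher, at 3 dpi in the cluster that made up most 3 dpi neutrophils. In cluster 7, Csf1 was 438 against 42.9 CPM, a ratio of 10.2 (8.18 to 12.8), and Csf3r was 1286 against 792 CPM, a ratio of 1.62 (1.505 to 1.75). Without cluster 12 the ratio over all neutrophils was 4.37 for Csf1, 1.18 for Csf3r and 0.93 for Csf2rb. In CPM, Csf1 kept its direction in each of these comparisons, and Csf3r and Csf2rb did not. The median log2 ratio of all genes in these pairs was 0.48 (cluster 3), 0.85 (cluster 7) and 1.10 (without cluster 12). Csf1 in cluster 3 and Csf3r in cluster 7 were thus higher by less than the median gene. Csf1 in cluster 7 and without cluster 12 was higher by more than the median gene.

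**Figure D5:**
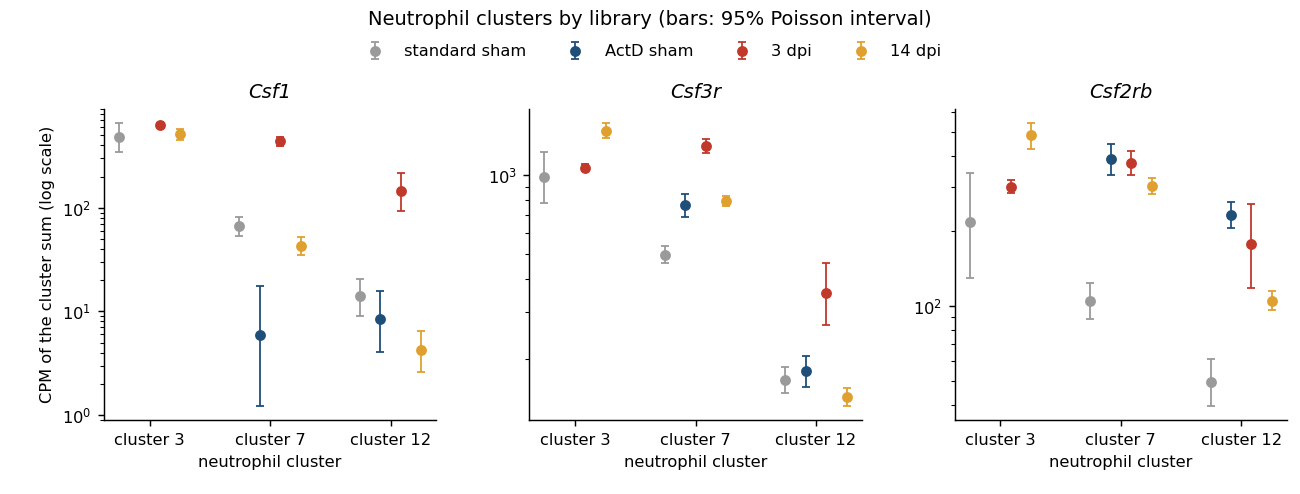
CPM of Csf1, Csf3r and Csf2rb (log axis) in neutrophil clusters 3, 7 and 12 of each library, with 95% Poisson intervals as bars. In cluster 3 Csf3r was 1063 CPM at 3 dpi against 1468 CPM at 14 dpi, and in cluster 7 Csf1 was 438 and 42.9 CPM.

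Csf2rb was highest in migratory dendritic cells at both times after injury, and GM-CSF is a growth factor of dendritic cells. At 3 dpi migratory dendritic cells, which carry antigen to lymph nodes, had 404 CPM, neutrophils 306 CPM, conventional dendritic cells 263 CPM and plasmacytoid dendritic cells 255 CPM. At 14 dpi the values in the same order were 261, 194, 147 and 212 CPM. There migratory and plasmacytoid dendritic cells held 77 and 82 Csf2rb UMIs, so the order of these 2 classes is uncertain. Monocytes, not in this list, had 1179 Csf2rb UMIs among 5675908 at 14 dpi, above neutrophils and conventional dendritic cells. Migratory exceeded conventional dendritic cells at both times, 1.53-fold at 3 dpi (1.30 to 1.79) and 1.77-fold at 14 dpi (1.38 to 2.25), from 70 and 40 migratory cells. Plasmacytoid dendritic cells differed in the paralog Csf2rb2, with 237 CPM at 3 dpi and 163 CPM at 14 dpi, levels near their Csf2rb, while Csf2rb2 was 127 CPM or less in the other classes of the injury libraries. The background in T cells was 29.7 CPM of Csf2rb at 3 dpi and 2.06 CPM at 14 dpi. All 5 members with enough UMIs were higher in T cells at 3 dpi than at 14 dpi, by 1.53-fold for Csf1r to 14.4-fold for Csf2rb, so low levels in other classes of the 3 dpi library are read against this background.

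Csf2 and Il34, the remaining ligands, were close to absent from the sorted immune cells. Csf2 had 11, 9, 3 and 46 UMIs in the kept cells of standard sham, ActD sham, 3 dpi and 14 dpi. At 14 dpi 27 of the 46 UMIs were in gamma-delta T cells, in 21 of 131 cells, with 9 in natural killer cells and 7 in T cells. The level in gamma-delta T cells was 40.9 CPM, 19.9-fold that of T cells (8.44 to 54.0). Gamma-delta T cells were thus the main Csf2 source found, at a depth that gives few counts. In standard sham 10 of 11 Csf2 UMIs were in 4 microglia, and in ActD sham the 9 UMIs were in 3 unnamed cells. Il34 had 0, 59, 21 and 24 UMIs in the 4 libraries. Non-immune cells held 55 of 59 Il34 UMIs in ActD sham, in 14 cells, 11 of 21 at 3 dpi and 23 of 24 at 14 dpi. These were few cells that passed the CD45 sort. In microglia Il34 had 0 UMIs in the sham libraries and at 14 dpi and 1 UMI at 3 dpi.

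The other genes of the pathway were taken from a list of 44 ligands, receptors, kinases, adaptors, transcription factors and targets downstream of the CSF receptors. In microglia at 3 dpi against ActD sham, 39 could be tested, of which 6 were at least 2-fold higher and 14 at least 2-fold lower, beside 14.2% and 32.7% of all genes, with a median log2 ratio of −0.60 beside −0.52. With TMM scaling 7 were lower, and with at least 200 UMIs a gene 3 were higher. By role, none of the 14 adaptors, kinases and phosphatases was higher and 7 were lower, 4 of 9 feedback, survival and cell cycle entry genes were higher and 2 lower, and 2 of 4 ligands, receptors and shedding genes were higher. Of the 7 transcription factors none was higher and 4 were lower, and of the 5 JAK-STAT genes none was higher and 1 was lower. Among the genes higher were Pim1, a survival kinase induced by STAT5, 10.7-fold, Socs3, a feedback inhibitor of cytokine receptors, 7.23-fold, and Il3ra, the alpha chain of the IL-3 receptor, 3.50-fold. Sdc1, a surface proteoglycan, had 35 UMIs at 3 dpi and 0 in ActD sham, at least 10.5-fold higher against a floor of 3 counts. Those lower included the kinase Lyn (0.30 of the sham level), the PI3 kinase subunit Pik3r1 (0.30), Myc (0.31) and Stat5b (0.31). The counts for the whole list lay near the shares of all genes, and the feedback, survival and cell cycle entry genes went both ways.

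At 14 dpi 38 list genes were tested in microglia, 1 was higher and 7 were lower, beside 6.09% and 19.7% of all genes, with a list median of −0.44 beside −0.55. The gene higher was Il3ra, 6.01-fold, and Pik3r1 (0.39), Socs3 (0.45) and Inpp5d (0.46) were among those lower. Socs3 was therefore above sham at 3 dpi and below it at 14 dpi. With TMM scaling none of the list was past 2-fold lower and 3 were higher at 14 dpi. In cycling against other microglia at 3 dpi, 39 were tested, and the 1 past 2-fold was the feedback inhibitor Socs1 (0.40). In standard against ActD sham, 8 of 38 were higher and 1 was lower, beside 6.76% and 23.8% of all genes, with a list median of −0.08 beside −0.56. Of the 8, 6 were feedback, survival and cell cycle entry genes, of which 9 were tested. In neutrophils at 3 dpi against 14 dpi, 20 of 38 were higher and 1 was lower, beside 55.8% and 5.76% of all genes, with a list median of 1.16 beside 1.16. With TMM scaling 9 were higher and 9 were lower. Sdc1 (19.96-fold, from 23 and 2 UMIs), Socs3 (8.43-fold) and Pim1 (6.22-fold) were among the highest, and Socs1 (0.46) was the lower one. Sdc1 again passed the threshold of 20 UMIs only through its 3 dpi counts. Pim1 and Socs3 were above the comparison library at 3 dpi in both classes.

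The genes whose levels were most like those of a member were taken from Pearson correlations over 33 units of class and library with at least 50 cells, among 11947 genes. Units of 1 library share its depth and free RNA, so the values are descriptions. Lair1 and Pros1 (r = 0.96 each) were among the genes most like Csf1r. Csf3r was most like Mboat7 (0.91), Trpm2 (0.87) and Tbc1d23 (0.87), and Csf2rb was most like its paralog Csf2rb2 (0.93), Alox5ap (0.90) and Fes (0.86). Csf2ra was most like App, Milr1 and Rab32 (0.91 each). Csf1 had no gene as close, with Siglecf (0.74), Pnpla7 (0.70) and Cd9 (0.68) first, and its level in microglia was also the one that differed most between the sham libraries.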

How the data were processed

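The authors sequenced CD45-positive spinal cord cells with the 10x Genomics 3′ version of single-cell RNA sequencing and deposited UMI counts per gene and barcode for 4 libraries. Per the labels, Cell Ranger and mm10 were used, and per the file headers the matrices were written by versions 3.0.1 (standard sham and 3 dpi) and 3.1.0 (ActD sham and 14 dpi). The pairs of 3 dpi with ActD sham and with 14 dpi therefore cross versions, and the part of this in their ratios was not tested. The deposited counts total 27447471 to 129935880 UMIs a library, over 2439 to 11631 barcodes.

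Following the filters of the study's methods, cells with fewer than 600 genes or more than 10% mitochondrial UMIs, cells with Itgam UMIs together with UMIs of lymphocyte markers (26 to 870 a library) were removed. Doublets were removed by the score of scanpy 1.11.5 (42 to 931 a library) in place of the study's DoubletFinder. The libraries were integrated and clustered with Seurat 5.3.0 in R 4.3.3 (2000 features, 50 dimensions, resolution 0.6), with the members and the pathway list left out of the features. Clusters of a library were named from marker lists. Those led by cell cycle genes, and 1 of ActD sham with leading genes of another class, were split cell by cell, by the likelihood of each cell's marker UMIs. Clusters under 20 cells, shallow with no marker leading, between classes, or otherwise led by genes of another class were left unnamed. The thresholds for naming, and the removal of 5 markers from the lists, were chosen with the clusters in view. For each class of a library the UMIs were added up and scaled to the class total (CPM). Exact Poisson intervals, exact conditional intervals of ratios and Clopper-Pearson intervals of shares were computed at 95% (Python 3.11.15, scipy 1.17.1), and a sum of 0 allows up to 3 counts. A gene was tested in a pair with at least 20 UMIs, and a ratio past 2-fold was counted. Shares were taken after thinning cells to 1000 UMIs, and cycling also after 3000. TMM factors came from edgeR 4.0.16.

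The members and lists were chosen with earlier results of these data known. All 7 members are named. Of the pathway list, at most the 4 largest past 2-fold in each direction are named for the pairs against ActD sham after injury and for neutrophils. For each member with at least 200 UMIs, the 3 genes of highest Pearson correlation of log2(CPM + 1) are named. Some genes that these rules select are not reported here. Counts were simulated for 5 of the pairs (microglia at 3 and 14 dpi over ActD sham, cycling over other microglia and injury-associated macrophages over microglia at 3 dpi, and neutrophils at 3 over 14 dpi). In these, 98.0% or more of genes changed 4-fold were past 2-fold, as were 0.77% to 1.94% of unchanged genes. The intervals held the true ratio in 95.5% to 95.9%. Only counting error was simulated, the same error that the intervals assume, so this coverage followed from the setup. The spread between mice or libraries was not simulated. Positions come from GENCODE for GRCm38, matched by gene identifier for 30934 of 31053 genes.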

Additional observations from a re-analysis of the deposited data

Results flagged for a closer look

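The change from ActD sham to 3 dpi went opposite ways in different classes for both Csf1r and Csf3r, and these differences between classes were not tested, since each condition is 1 library. The Csf1r ratio of 3 dpi to ActD sham was 2.13 in neutrophils, 0.22 in microglia and 0.26 in border-associated macrophages. The Csf3r ratio was 2.98 in neutrophils and 0.28 in microglia. Beside these values, the median log2 ratio of all genes was 1.08 in neutrophils, −0.52 in microglia and −0.26 in border-associated macrophages, and the Csf1r level in 3 dpi neutrophils, 214 CPM, stood beside 90.2 CPM in T cells and 152 CPM in B cells of that library. The part of the depth, of the cluster mix and of free RNA in these values was not tested.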

How the results depend on the processing

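Of 58 values of the ratios under other settings, 56 kept their direction and 55 their side of 2-fold. Of 11 added after seeing the data, 8 kept each. With edgeR TMM scaling, Csf1r in microglia was 0.30 (3 dpi) and 0.72 (14 dpi) of ActD sham, Csf1 was 6.24 and 5.45, Csf1r in macrophages over microglia was 0.31, and in neutrophils at 3 over 14 dpi Csf3r was 1.05 and Csf2rb turned to 0.69. With TMM the pathway counts in microglia became 7 lower at 3 dpi, and 3 higher and 0 lower at 14 dpi, and in neutrophils 9 higher and 9 lower. With at least 200 UMIs, 3 list genes were higher in 3 dpi microglia and 0 lower in neutrophils.

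For other ways of naming cells, values follow in the order Csf1r at 3 and 14 dpi and Csf1 at 3 and 14 dpi in microglia over ActD sham, Csf1r and Csf1 in cycling microglia, Csf1r in macrophages, and Csf3r and Csf2rb in neutrophils, where they moved beyond the interval. With each library clustered alone, Csf1r at 14 dpi was 0.46, Csf1 was 5.84 and 4.68, and cycling Csf1r 0.79. At resolution 1.2, Csf1r at 3 dpi was 0.21, Csf1 5.32 and 4.27, cycling values 0.77 and 1.12, and macrophages 0.27. With the stricter cell filter, which left 372 microglia at 3 dpi, Csf1r at 3 dpi was 0.20, cycling values 0.80 and 1.72, macrophages 0.29, and neutrophils 3.38 and 1.95. With no doublet removal, Csf1r was 0.19 and 0.47, Csf1 5.43 and 4.85, cycling values 0.77 and 1.05, macrophages 0.28, and neutrophils 2.79 and 1.77. With each cell named on its own, Csf1r was 0.20 and 0.50, Csf1 at 3 dpi 4.04, cycling values 0.97 and 1.71, macrophages 0.29, and neutrophils 3.44 and 1.99. Calling cycling cells after thinning gave 0.92 for Csf1r and turned Csf1 to 0.87. The cause was not tested.

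Added after seeing the data, 3 dpi microglia without cluster 1 gave 0.24 for Csf1r over ActD sham, 0.64 for cycling Csf1r and 0.23 for macrophages. Neutrophils without cluster 12 gave 1.18 for Csf3r and turned Csf2rb to 0.93. Cluster 3 alone turned Csf3r to 0.72 and Csf2rb to 0.62, and cluster 7 alone gave 1.62 and 1.24. Without thinning, 38.1%, 16.4%, 51.7% and 42.2% of microglia had a Csf1 UMI in standard sham, ActD sham, 3 dpi and 14 dpi, and 53.2% and 13.1% of neutrophils at 3 and 14 dpi.

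No paired analysis was possible because each condition was 1 library, and for the same reason no replicate could be left out. Depth limits Csf2 and Il34, with at most 59 UMIs in the kept cells of any library, and classes under 50 cells. The spread between mice is unknown, and T cells carried more of every receptor at 3 than at 14 dpi (gamma-delta T cells had 54.3 and 63.6 CPM of Csf1r), which limits readings of low levels in that library.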
